A study of Mus musculus with 8 samples.

Results

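The 4 mouse Hox gene clusters are described here by the Rad21 peaks that lie over them in 8 ChIP-seq libraries of a B-cell lymphoma line. The windows held 38 listed Hox genes: Hoxa at chr6:52050000-52270000, Hoxb at chr11:96000000-96290000, Hoxc at chr15:102700000-102900000 and Hoxd at chr2:74450000-74655000 of the mm9 build. Each window was the cluster with 50 kb on both sides, and every peak overlapping it by at least 1 bp was a member. The windows held 204 of the 199072 peaks in all lists, or 0.102%. Peaks that overlapped across libraries were merged into regions, which gave 58 Hox regions among 64772 regions in the genome. Hoxa held 8 of them, Hoxb 13, Hoxc 31 and Hoxd 6.

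Hox genes encode homeodomain transcription factors that give cells their position along the body axis, and their order along the chromosome follows the order in which they are switched on in the embryo. Cohesin is the ring-shaped complex that extrudes chromatin loops, and Rad21 is the subunit that closes the ring. Cohesin accumulates at sites bound by the zinc-finger protein CTCF, and CTCF sites inside the Hox clusters are known from embryonic tissue as borders between active and Polycomb-repressed genes. In B cells cohesin is known for loops at the immunoglobulin heavy chain locus Igh, which lies on another chromosome than any of the 4 clusters. In the RefSeq gene order of the GRCm38 build, the clusters lie between Skap2 and Evx1 (Hoxa), Ttll6 and Skap1 (Hoxb), Calcoco1 and Smug1 (Hoxc), and Evx2 and Mtx2 (Hoxd). Along rising position Hoxa runs from Hoxa2 to Hoxa13, Hoxb from Hoxb13 to Hoxb1, Hoxc from Hoxc13 to Hoxc4 and Hoxd from Hoxd13 to Hoxd1. That build differs from the build of the peaks, so no gene was assigned to a region.

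The libraries came from CH12F3, a mouse B lymphoma line used for class switch recombination, in derivatives that all lack AID (AID-/-), the deaminase that starts switching. All cells were stimulated for 3 days with anti-CD40, IL4 and TGF-β. The 4 genotypes, with 2 libraries each, carry edits at Igh. Those named FS keep the switch regions Sγ3 and Sα at full length, after a deletion of Cγ3-Iα (FS_Ca) or of Cγ3-Cα (FS_Ia). Those named PS carry a deletion between Sγ3 and Sα that leaves part of each (PS_Ca and PS_Ia). The parent of the Ca lines had its non-coding Igh allele deleted between VH and the 3' CBEs (CTCF-binding elements), and the parent of the Ia lines is named αInv. The labels do not say what αInv means. Whether 2 libraries of a genotype came from separate clones or cultures is not stated in the labels, so every p-value measures only the spread between these libraries. Peak lists hold no expression values, so the cell type could not be checked against its markers.

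Lists differed in length, from 11288 peaks in PS_Ca replicate 2 to 47461 in PS_Ia replicate 2, and the lowest summits rested on 3 to 5 fragments. The authors' fold at a summit equals the summit's fragments plus 1, divided by the list's background plus 1. That background was a single value per list (0.223 to 0.862 fragments), so the whole number of fragments at each summit could be read back. Longer lists reach weaker sites, and Hox peak numbers were therefore also given per 10000 peaks of the list and in lists of equal length.

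Rad21 peaks lay within all 4 clusters in every library, and a small set of sites recurred in all of them. The number of Hox peaks was 19 and 36 in the FS_Ca libraries, 14 and 22 in FS_Ia, 28 and 14 in PS_Ca, and 17 and 54 in PS_Ia. The longest list gave the most and the 2 shortest gave the fewest. Per 10000 peaks the libraries ranged from 8.26 to 12.4. In lists of equal length, each holding its 11288 strongest peaks, the Hox total was 14 to 15 in the Ca libraries and 12 to 13 in the Ia libraries. Peaks tied at the cut were taken in order of chromosome name and position. In FS_Ca replicate 1 a Hoxa peak of 7 fragments was left out in this way, and in PS_Ia replicate 2 a Hoxc peak of 12 fragments. In PS_Ca replicate 1 a Hoxd peak of 12 fragments was kept in this way. Another order of ties was not tested.

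Of the 58 Hox regions, 11 were held by all 8 libraries, or 19.0%, against 10.4% of all regions in the genome. These 11 regions were 2 in Hoxa, 5 in Hoxb, 2 in Hoxc and 2 in Hoxd. Another 29 of the 58 regions were seen in 1 library, against 52.6% of all regions. Of those 29, 22 came from PS_Ia replicate 2, the longest list, or 75.9% against 50.5% over the genome. FS_Ca replicate 2 gave 5, and PS_Ca replicate 1 and PS_Ia replicate 1 gave 1 each.

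**Figure D1:**
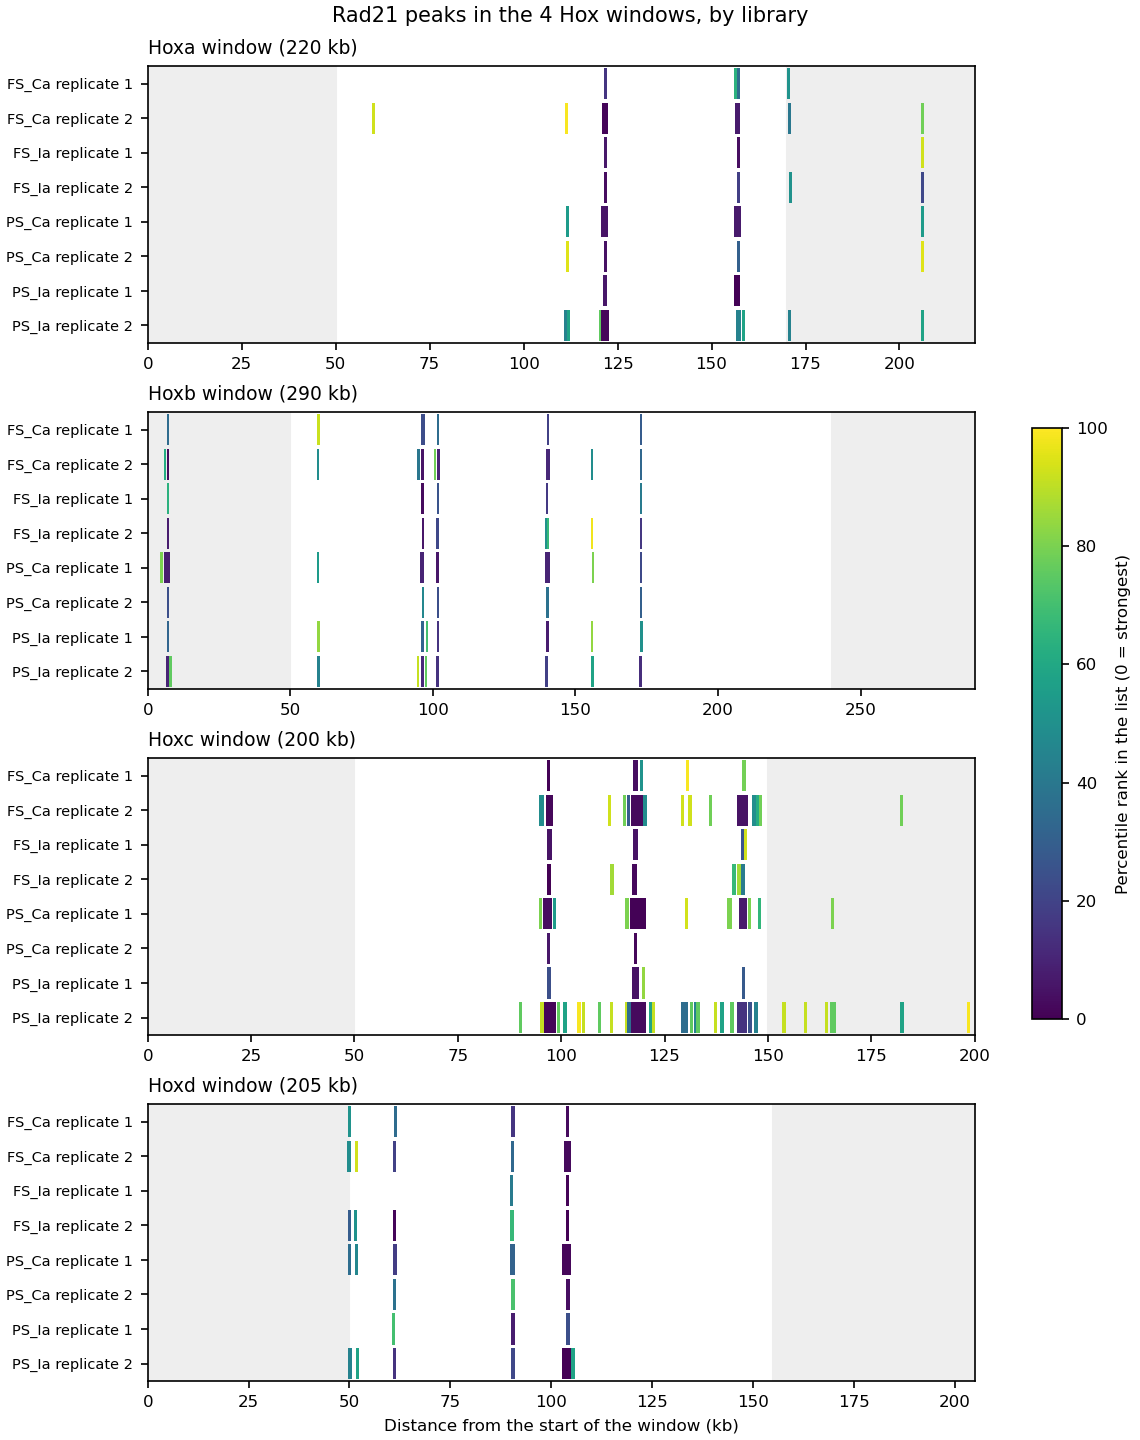
Rad21 peaks across the 4 Hox windows (panels) in each of the 8 libraries (one line each), against distance from the window start in kb; the colour gives the percentile rank of the peak in its list (0 strongest) and grey marks the 50 kb flanks. Sites held by all 8 libraries stand as full columns, 2 in Hoxa, 5 in Hoxb, 2 in Hoxc and 2 in Hoxd, and the many further Hoxc peaks lie mostly in PS_Ia replicate 2.

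In Hoxa the strongest site lay 122 kb into the window, at chr6:52170698-52172647. Its summit held 14 fragments in the lowest library, a median of 24.5 and 33 in the highest. Its fold ran from 10.8 to 21.3, and the highest fold and the most fragments were in different libraries. It ranked high in every list, with a mean percentile rank of 5.54 (0 is the strongest peak of a list). The other Hoxa site of all 8 libraries, at chr6:52205941-52207856, lay 157 kb into the window and varied more. Its summit held a median of 15.5 fragments, with 38 in PS_Ia replicate 1 and 9 in PS_Ia replicate 2, so the 2 libraries of 1 genotype were the extremes. Among Hoxa regions held by fewer libraries, the best ranked was chr6:52220381-52221183, seen in 4 libraries at 6 to 10 fragments. A region at chr6:52255687-52256517, in the flank beyond the cluster, was seen in 6 libraries at 5 to 11 fragments.

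Hoxb held the most recurrent sites, and none of them was among the 4 strongest of the 11. The region at chr11:96095539-96097085 had a median of 19 fragments (10 to 24), and its neighbour at chr11:96101215-96102371 had a median of 14.5 (10 to 27). The region at chr11:96139451-96141122 had a median of 13.5 fragments (6 to 23). The last site of the window, chr11:96172444-96173519, had 9 to 17 fragments and the weakest mean percentile rank of the 5, 29.3. The fifth, chr11:96005751-96007683, lay in the flank 7.16 kb from the window start, with 7 to 29 fragments. Mean percentile ranks of the 5 were between 17.2 and 29.3, so on average each was in the stronger part of the lists. The best of the remaining Hoxb regions, chr11:96059469-96060417, was seen in 5 libraries at 5 to 9 fragments and had a mean percentile rank of 64.7.

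Hoxc combined strong recurrent sites with many weak ones. Its region at chr15:102815021-102820628 was high in every library, with 18 to 44 fragments at the summit, a median of 26.5 and a mean percentile rank of 2.89. The region at chr15:102794616-102798769 held 15 fragments in PS_Ia replicate 1, a median of 30.5 and 56 in FS_Ia replicate 2, with a mean percentile rank of 5.22. A region at chr15:102842449-102845166 was seen in 7 libraries, at 6 to 26 fragments, and not in PS_Ca replicate 2. All other Hoxc regions were seen in at most 4 libraries, and 20 of them in 1 library. Of these 20, 17 came from PS_Ia replicate 2. Without that library Hoxc held 18 regions, 13 of them in 1 library, and its mean number of peaks per library was 6.71 in place of 9.62. The median percentile rank of the Hoxc peaks of a library ran from 3.73 in PS_Ca replicate 2, which had 2 peaks there, to 80.3 in PS_Ca replicate 1, which had 11. It ran from 3.28 to 62.7 in Hoxa, from 16.1 to 41.2 in Hoxb and from 21.0 to 37.2 in Hoxd.

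In Hoxd the strongest site was chr2:74552759-74555052, 104 kb into the window, with 15 fragments in PS_Ia replicate 1, a median of 27 and 55 in PS_Ia replicate 2. Its mean percentile rank was 4.52. The neighbouring region of all 8 libraries, chr2:74539913-74541170, was the weakest of the 11, with 5 to 22 fragments and a mean percentile rank of 36.2. In PS_Ia replicate 1 the order was turned, with 22 fragments at this region and 15 at the other. The region at chr2:74510764-74511764 was seen in 7 libraries with 8 to 32 fragments and was missing from FS_Ia replicate 1. The last 99.3 kb of the window held no peak in any library.

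The gene clusters held more Rad21 peaks per length than the 50 kb flanks beside them, averaged over both flanks, in all 4 windows. In each window the flank peaks all lay in 1 of the 2 flanks, and the other held none in any library. In Hoxa the 120 kb interior held 25 peaks over all libraries and the occupied 50 kb flank 10. In Hoxb the 190 kb interior held 48 and the occupied flank 11. The excess inside thus had an empty flank averaged in, and the occupied flank alone was not tested. In Hoxb the cluster's interior had 3.16 ± 0.844 peaks per 100 kb and the flanks 1.38 ± 0.518 (SD, n = 8), a difference of 1.78 that was positive in 8 of 8 libraries (exact sign permutation test, two-sided, Benjamini-Hochberg adjusted p = 0.0104 over 4 clusters). In Hoxd the interior had 3.57 ± 1.11 and the flanks 0.375 ± 0.518 (SD, n = 8; exact permutation, adjusted p = 0.0104). All 3 flank peaks of Hoxd belonged to 1 region, chr2:74499676-74500438, whose summits lay on both sides of the border. In Hoxc the interior had 8.62 ± 7.31 and the flanks 1.00 ± 2.07 (SD, n = 8; exact permutation, adjusted p = 0.0104). In Hoxa the interior had 2.60 ± 1.13 and the flanks 1.25 ± 0.707 (SD, n = 8), higher inside in 7 of 8 libraries (exact permutation, adjusted p = 0.0156). In lists of equal length the excess inside was 3.00 in Hoxc, in place of 7.62, and 1.04 in Hoxb, in place of 1.78 (exact permutation, adjusted p = 0.00781 each). The smallest p this test can give is 0.00781.

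Between clusters, no difference in density passed the threshold. Per 100 kb of window and per 10000 peaks, Hoxc had 1.65 ± 0.775, Hoxb 1.12 ± 0.263, Hoxa 0.876 ± 0.359 and Hoxd 0.869 ± 0.235 (SD, n = 8). Hoxc ranged from 0.886 to 3.16 and overlapped the other 3. Over the 6 pairs of clusters, the lowest adjusted p was 0.0703 (exact sign permutation, Benjamini-Hochberg), reached by Hoxb minus Hoxa (0.243), Hoxc minus Hoxa (0.776), Hoxd minus Hoxb (-0.249) and Hoxd minus Hoxc (-0.782). Hoxa and Hoxd differed by -0.00639 (exact permutation, adjusted p = 0.930). In lists of equal length Hoxb held a median of 5 peaks (4 to 5), Hoxc 3 (2 to 4), Hoxd 3 (2 to 4) and Hoxa 2 (1 to 4). There the order of Hoxb and Hoxc was turned, with a difference of -0.160 (exact permutation, adjusted p = 0.164). With the flanks left out, Hoxc exceeded Hoxa by 1.91 and Hoxb by 1.67, and Hoxd exceeded Hoxa by 0.543 (exact permutation, adjusted p = 0.0312 each). At a −log10 q of at least 5, Hoxb minus Hoxa (0.566) and Hoxd minus Hoxa (0.266) passed (exact permutation, adjusted p = 0.0469 each). Without PS_Ca replicate 2, the differences Hoxb minus Hoxa (0.289), Hoxc minus Hoxa (0.990), Hoxd minus Hoxb (-0.252) and Hoxd minus Hoxc (-0.953) passed the threshold (exact permutation, adjusted p = 0.0469 each).

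**Figure D2:**
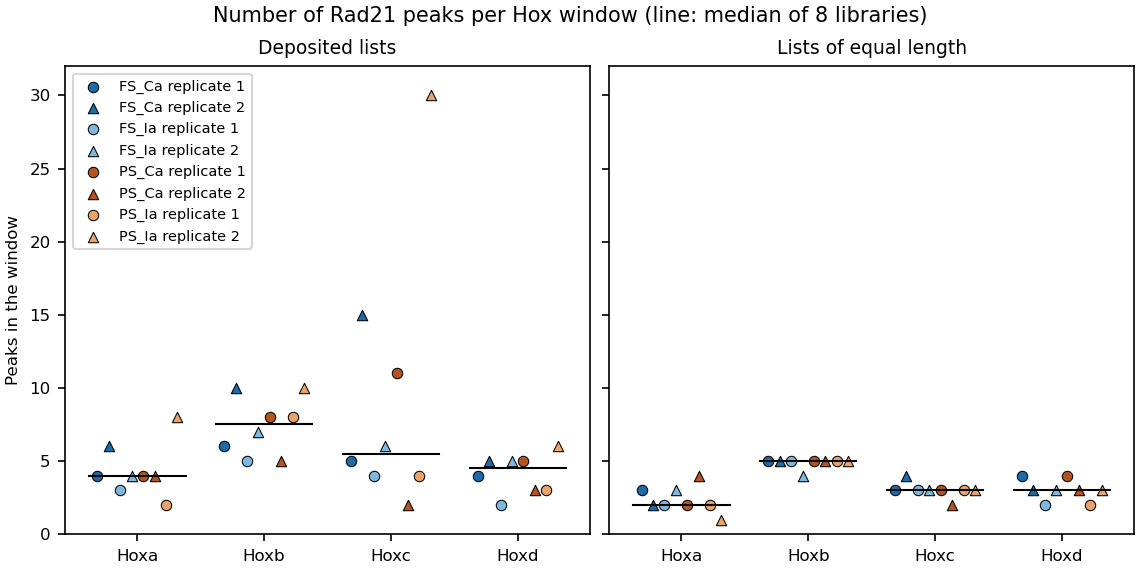
Number of Rad21 peaks per Hox window, one point per library with a line at the median, in the deposited lists (left) and in lists of equal length (right). In the deposited lists Hoxc runs from 2 peaks in PS_Ca replicate 2 to 30 in PS_Ia replicate 2, and in lists of equal length from 2 to 4.

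The number of recurrent regions per window was set against all tiles of the same length placed end to end along the chromosomes. Of the 8869 tiles of the Hoxb window's length, 1.36% held at least 5 regions of all 8 libraries, and the mean tile held 0.765. For Hoxa 15.2% of tiles held at least 2, for Hoxc 13.8% and for Hoxd 14.1%. These shares moved with the libraries and the window. Without PS_Ca replicate 2, and counting regions of the 7 others, 3.19% of tiles held as many as Hoxb and 7.85% as many as Hoxc, and without FS_Ia replicate 1, 5.91% held as many as Hoxd. With the flanks left out the share was 1.26% for Hoxb, 7.11% for Hoxa, 5.33% for Hoxc and 5.71% for Hoxd. In each of these settings the share for Hoxb was below that of the other 3. On chromosome 11 alone, which is dense in peaks, 4.40% of tiles held as many as Hoxb, and among tiles with a peak in any library 1.91% did. The count of 5 in Hoxb depended on the list and the region rule. In lists of equal length Hoxb held 4 regions of all 8 libraries, and 1.70% of tiles held as many. With regions drawn as 100 bp on both sides of each summit it also held 4, and 2.63% of tiles held as many. Counting all peaks of 1 library, Hoxc was matched by 0.995% of tiles in PS_Ia replicate 2 and by up to 20.6% in other libraries. In lists of equal length the share for Hoxc in PS_Ia replicate 2 was 12.7%.

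**Figure D3:**
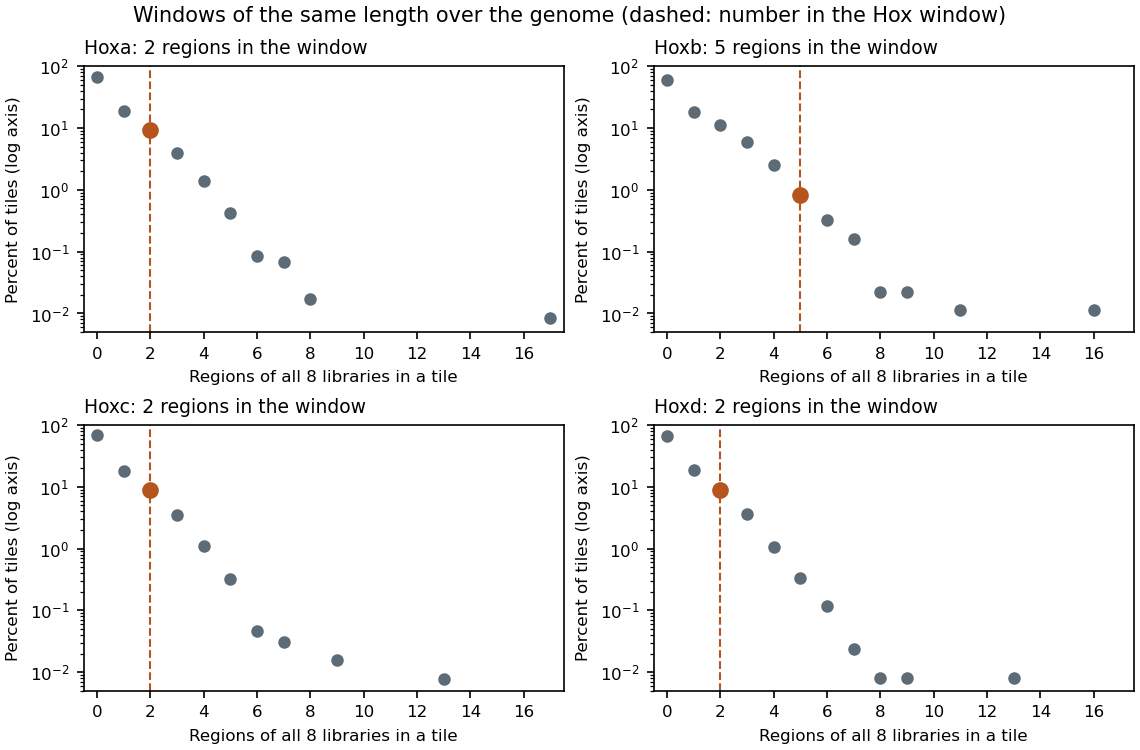
Percent of same-length tiles (log axis) that hold exactly a given number of regions of all 8 libraries, in one panel per cluster, with the Hox window's own number dashed. For Hoxb, 1.36% of tiles lie at its 5 regions or beyond, and for the other clusters 13.8% to 15.2% lie at 2 or beyond.

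The summits of the 11 regions varied in position as much as those of other recurrent regions. Their summits had a median SD of 86.8 bp between libraries, against 86.7 bp for all 6747 regions of 8 libraries. Their fold values had a median of 11.9 against 10.3, and their rank within those 6747 regions had a median of 44.3 against 50.8, where 0 is the strongest. Single sites spread widely within that range. Hoxd's chr2:74552759-74555052 had a median rank of 6.52 and its neighbour chr2:74539913-74541170 a median rank of 84.8. PS_Ia replicate 1 gave the Hoxc region chr15:102794616-102798769 and the Hoxd region chr2:74552759-74555052 a rank of 56.7, the weakest of the 8 libraries at both. At the Hoxa region chr6:52205941-52207856 ranks ran from 1.65 in PS_Ia replicate 1 to 98.0 in PS_Ia replicate 2.

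**Figure D4:**
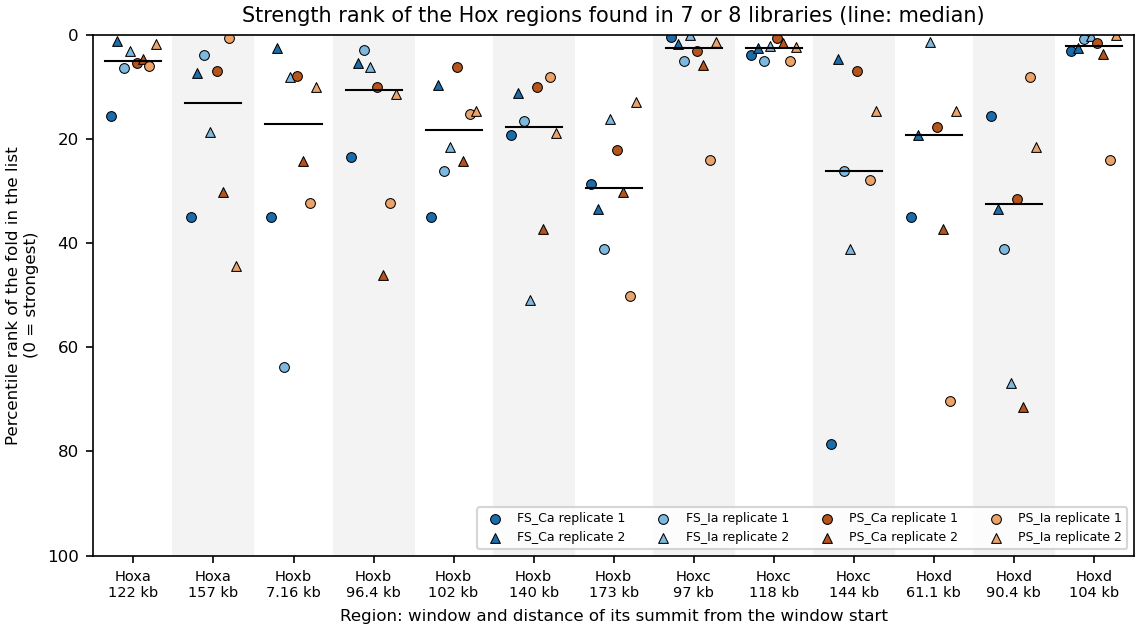
Percentile rank of the fold within each library's whole list (0 strongest, at the top) for the Hox regions found in 7 or 8 libraries, named by cluster and distance from the window start, with a point per library and a line at the median. The Hoxc region at 118 kb lies between 0.558 and 5.02 in all 8 libraries, while the Hoxd region at 104 kb runs from 0.113 to 24.0, its weakest point being PS_Ia replicate 1.

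Neighbouring recurrent sites of a window were 5.30 to 89.3 kb apart. In Hoxb they were 89.3, 5.30, 38.5 and 32.8 kb apart, and the pairs in Hoxa, Hoxc and Hoxd were 35.4, 21.0 and 13.6 kb apart. Over the genome, 6726 distances between neighbouring recurrent regions had a median of 130 kb, with quartiles of 48.2 and 309 kb. Shares of genome distances as short were 39.1%, 2.87%, 21.1% and 18.4% for the Hoxb pairs in that order. They were 19.4% for Hoxa, 12.9% for Hoxc and 9.13% for Hoxd. Distances within a window are bounded by its length, which favours short ones, so these shares are a description and not a test. To the next recurrent region outside, the distance was 364 and 582 kb for Hoxa, 52.3 and 362 kb for Hoxb, 205 and 178 kb for Hoxc, and 635 and 873 kb for Hoxd. The longest stretch of a window without a peak in any library was 116 kb in Hoxb, at chr11:96173520-96290000, and 44.1% of tiles of that length were empty. It was 99.3 kb in Hoxd (47.2% of tiles empty), 90.1 kb in Hoxc (49.1%) and 59.9 kb in Hoxa (57.2%). Each of the 4 stretches ran to an edge of its window, so the lengths are lower limits.

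CTCF-like letters were looked for in the Hox promoters of the RefSeq table, since CTCF sites are where cohesin halts. The table, on GRCm38.p6, holds a promoter (250 bases before to 50 after the start) for 22 of the 38 genes: 9 in Hoxa, 3 in Hoxb, 1 in Hoxc and 9 in Hoxd. A core of the CTCF motif was found on either strand in 1 of the 22 (4.55%), against 763 of 27025 genes (2.82%). The match was in Hoxc4, on the strand opposite to the gene. Counted along the gene's own strand, the match began at position -73 from the start, which is the last motif base as printed. It is shown here, on the strand of the match with the motif in capitals, because it was the only one.
Hoxc4: cctctccggCCTCCAGTGGGCcccgtgggc
No peak was placed on it, and the match describes letters only. The Hox promoters had a median GC content of 57.7%, against 52.7% for all promoters, and a median of 14.5 CpG dinucleotides, against 7. Within the clusters they differed widely. In Hoxa13, a gene of the distal limb and hindgut, GC was 81.0%, and in Hoxd13, its counterpart in the Hoxd cluster, it was 74.3%. In Hoxa9, which is active in blood progenitors, GC was 49.7%, and in Hoxd4 it was 39.7%. The promoter of Hoxc4 had a GC content of 60.3%.

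Hox peaks were compared between Ia and Ca and between PS and FS. The Ia and Ca lines differ in parent line, and with full-length switch regions also in the deletion, and these cannot be told apart. Per 10000 peaks, the Ca libraries had 11.0 and 11.4 (FS) and 9.04 and 12.4 (PS) Hox peaks, and the Ia libraries 10.1 and 8.41 (FS) and 8.26 and 11.4 (PS). These values overlapped between Ia and Ca. Their means were 9.54 ± 1.49 in Ia and 11.0 ± 1.41 in Ca (SD over 4 libraries each), and Ia minus Ca was -1.43 (two-sided exact permutation test, p = 0.200, Benjamini-Hochberg adjusted p = 0.400 over 2 contrasts). In lists of equal length the counts did not overlap, with 15, 14, 14 and 14 in Ca and 12, 13, 12 and 12 in Ia. Another order of peaks tied at the cut could make these counts touch, and was not tested. In the order used, Ia minus Ca was -1.77 per 10000 peaks (exact permutation, p = 0.0286, the smallest that 4 against 4 can give, adjusted p = 0.0571). This difference did not pass the threshold after adjustment. Peak names fall into 3 prefix sets, within which the difference in the deposited lists was -1.96 (4 FS libraries), -0.778 (PS replicate 1) and -1.02 (PS replicate 2). By switch length, PS libraries had 10.3 ± 1.94 and FS libraries 10.2 ± 1.34 (SD over 4 libraries each; PS minus FS 0.0255, exact permutation p = 1.00, adjusted p = 1.00). No prefix set holds both switch lengths, so the 2 cannot be told apart.

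Presence of a peak separated the groups at no Hox region. By either factor 0 of 58 regions were present in all 4 libraries of one level and none of the other. The background of such regions was 0.0247% for Ia, 0.0232% for Ca, 0.0401% for PS and 0.00772% for FS. The lowest Fisher exact p for presence was 0.429 (Benjamini-Hochberg adjusted p = 1.00), with 0 of 58 at an unadjusted p under 0.05 against 0.0479% of all regions by either factor. The smallest p of 4 against 4 is 0.0286. With adjustment over all regions, an adjusted p under 0.05 would need most of the regions to reach that smallest p. The adjusted values for presence and for rank therefore cannot tell whether a single region differs. In rank, 0 of the 11 regions were separated without overlap, against a background of 2.71% between Ia and Ca and 2.89% between PS and FS. The lowest p between PS and FS was 0.0571 (exact permutation, adjusted p = 0.941), for chr11:96095539-96097085 in Hoxb, with mean ranks of 59.0 in PS and 26.0 in FS. Between Ia and Ca it was 0.143 (exact permutation, adjusted p = 1.00), for the Hoxc region at chr15:102815021-102820628, with mean ranks of 12.2 in Ia and 6.50 in Ca.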

How the data were processed

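Rad21 ChIP-seq was done on 8 libraries (2 of each of 4 genotypes) with 1% formaldehyde fixation, Tn5 tagmentation and 150 bp paired-end reads, per the labels' protocols. The submitters' processing notes name mm9, MACS2 2.2.7.1, Bowtie2 2.4.4, deepTools 3.5.1 and SAMtools 1.15.1. The deposited peak lists, one per library, hold a display score, the fold (a ratio) at the summit, −log10 p-value and −log10 q-value, and a summit offset in bases, as the authors' caller wrote them. No control or peak threshold is named in the sources used here. Depth is not known, but the deposited folds, apart from the highest, gave whole fragments at the summit within 0.01. The highest folds were read back with the same step of their list and were left out of that check.

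Python 3.11.15, numpy 2.4.6, pandas 2.3.3 and scipy 1.17.1 were used. Peaks overlapping by at least 1 bp over libraries were merged into regions. Ranks follow the fold within a list, or within the 6747 regions of all 8 libraries. Peaks inside and beside a cluster were placed by summit, and the density beside a cluster was averaged over both flanks. Tests were exact permutations over libraries (70 assignments for 4 against 4, 256 sign patterns for 8 libraries) and Fisher's exact test of presence. Benjamini-Hochberg adjustment ran over all regions or over the comparisons of a family, with a threshold of 0.05. Regions named are those of all 8 libraries and the best ranked of the others in each window, plus 1 flank region each in Hoxa and Hoxd chosen after their values were seen. Members, lists and tests were chosen with earlier results of these data known. Procedures were tested on simulated data. Tried alternatives were a q threshold, equal list lengths, clusters without flanks, other region rules, other tile sets, each library left out, the replicate block, other ranked columns and stricter motif letters.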

Additional observations from a re-analysis of the deposited data

Results flagged for a closer look

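Each of 64 groups of 4 libraries was checked for a library that lay far from the others, and 1 in 20 is flagged by chance. Effects in FS and PS were also set side by side. In all, 7 results stood out. Of these, 1 came from the comparison of FS and PS, to which the rate of 1 in 20 does not apply. Groups by orientation and by switch length share libraries, so the flags are not independent. PS_Ia replicate 1 was flagged among both the Ia and the PS libraries at some regions. For the Hoxc region chr15:102794616-102798769, PS_Ia replicate 1 had a rank of 56.7, against 0.489 to 9.96 in the other Ia libraries and 8.89 to 14.3 in the other PS libraries. For the Hoxd region chr2:74552759-74555052, the same library had a rank of 56.7, against 0.748 to 1.81 in the other Ia libraries and 0.748 to 7.34 in the other PS libraries. For its neighbour chr2:74539913-74541170 that library was instead the stronger one, at 22.7 against 81.8 to 90.6 in the other PS libraries. In this region FS_Ca replicate 1 had a rank of 36.0, against 81.8 to 90.6 in the other Ca libraries. For the Hoxb region chr11:96095539-96097085, the Ia minus Ca difference in rank was 38.7 higher in PS than in FS. In FS the Ia libraries had ranks of 6.0 and 22.5 and the Ca libraries 51.1 and 24.4, while in PS the Ia libraries had 69.2 and 64.0 and the Ca libraries 42.9 and 59.9. That difference was not tested, and what sets these libraries apart was not tested.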

How the results depend on the processing

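Of 253 alternative values for 25 results, 190 were labelled unchanged. Tested values then kept their direction and side of the threshold, and counts stayed within a fixed ratio of the main count. Shares of tiles stayed within a 95% interval around the main share. By this rule, 4 regions of all libraries in Hoxb in place of 5 counted as unchanged. Of the rest, 17 turned direction, 7 newly passed the threshold and 39, with no test, moved. Unless stated, the cause of a change was not tested. With each library left out, the higher density inside than beside the clusters stayed past the threshold, at 1.12 to 1.60 in Hoxa, 1.65 to 1.88 in Hoxb, 6.14 to 8.43 in Hoxc and 2.97 to 3.39 in Hoxd, as it did at a −log10 q of at least 5 (1.04, 1.37, 3.88 and 2.61) and in lists of equal length (1.29, 1.04, 3.00 and 2.61). Differences in density between clusters did not hold their calls. With each library left out, Hoxb minus Hoxa ran from 0.149 to 0.289, Hoxc minus Hoxa from 0.545 to 0.990, Hoxd minus Hoxa from -0.0458 to 0.0376, Hoxd minus Hoxb from -0.286 to -0.195 and Hoxd minus Hoxc from -0.953 to -0.531. At a −log10 q of at least 5, Hoxb minus Hoxa was 0.566, Hoxd minus Hoxa 0.266 and Hoxc minus Hoxb -0.0864. In lists of equal length Hoxd minus Hoxa was 0.340 and Hoxc minus Hoxb -0.160. With the flanks left out, Hoxc minus Hoxa was 1.91, Hoxd minus Hoxa 0.543, Hoxc minus Hoxb 1.67 and Hoxd minus Hoxb 0.303. Ia minus Ca per 10000 peaks was -3.39 at the stricter q (exact permutation, adjusted p = 0.171), -1.77 in lists of equal length (adjusted exact p = 0.0571), -1.28 without flanks and -2.08 to -0.955 with each library left out. PS minus FS per 10000 peaks was -2.10 at the stricter q, -0.443 in lists of equal length, -0.0538 without flanks and -0.686 to 0.695 with each library left out, all not past the threshold. Regions of all libraries numbered 1 in Hoxa and 1 in Hoxd at the stricter q and in lists of equal length, where fewer peaks enter; as many were in 24.2% and 25.1% of tiles for Hoxa and in 22.9% and 23.8% for Hoxd. The stricter CTCF letters were in 0 promoters of the 22, against 0.618% of all genes. Replicate numbers were not taken as a pairing in the main tests. Deviations of same-numbered libraries correlated at -0.202 (FS_Ca with PS_Ca) to 0.325 (FS_Ia with PS_Ia). With 2 libraries per genotype, these values cannot show whether same-numbered libraries share a batch. With the replicate block, Ia minus Ca was -1.43 (exact permutation, adjusted p = 0.250) and PS minus FS 0.0255 (exact permutation, adjusted p = 1.00). With the replicate block, 1 of 11 regions had the same sign of rank difference in all 4 pairs between Ia and Ca (12% of all regions) and 1 of 11 between PS and FS (13.7%). Without chromosome 12, 1.41% of tiles matched Hoxb. That setting was chosen after seeing the data, because some lists seemed displaced there past Igh. No value given here measures such a displacement. The lists hold called peaks only, so a missing peak does not show that Rad21 was absent.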
